A study of Mus musculus with 9 samples.

Results

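Replication-dependent histone genes were described in quadriceps muscle of dystrophin-deficient mdx mice that lacked the mineralocorticoid receptor (MR) in myeloid cells or in myofibers. The members were all genes whose current or earlier symbol has the form Hist1h to Hist4h followed by the histone type, taken from transcript clusters of the array that carry a single gene symbol, and 30 of 30061 genes with such a cluster met this rule. Of the 30, 5 encode the linker histone H1, 11 are H2A, 9 are H2B, 3 are H3 and 2 are H4 genes. The groups were LysM-MRcko/mdx (LysM-Cre+/-, MR flox/flox, mdx), MCK-MRcko/mdx (MCK-Cre+/-, MR flox/flox, mdx) and Cre-/mdx (Cre -/-, MR flox/flox, mdx), with 3 mice and 3 arrays in each. All 9 mice were 8 weeks old on a mixed C57BL6/C57BL10 background, all carried the floxed MR alleles and the mdx mutation, and no group had intact dystrophin. LysM-MRcko/mdx and Cre-/mdx each held 2 males and 1 female, and MCK-MRcko/mdx held 1 male and 2 females. The LysM promoter drives Cre in myeloid cells throughout the body and the MCK promoter in striated muscle, but RNA came from the whole muscle, so that every value mixes myofibers, immune cells and stroma. Values are log2 signals of Clariom D transcript clusters, 1 array per mouse.

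Replication-dependent histones are made in bulk during S phase, when newly copied DNA has to be packed into nucleosomes. Each nucleosome core is built of H2A, H2B, H3 and H4, and H1 binds the linker DNA between cores. Their genes lie in clusters, are switched on through the coactivator NPAT, and give mRNAs that end in a stem-loop bound by SLBP in place of a poly(A) tail. In adult muscle most nuclei belong to myofibers, which no longer divide, whereas in dystrophic muscle satellite cells, macrophages and fibroblasts proliferate.

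In RefSeq 23 of the members lie on chromosome 13, 6 on chromosome 3 and 1 on chromosome 11. RefSeq promoters of build GRCm38.p6 were matched for 25 members, and H2ac14, H2af-ps2, H2bc21, H2bu1-ps and H3c7 had none in the table. Within the window that runs 250 bases upstream to 50 bases downstream of the start, searched on both strands, the letters CCAAT occurred in 24 of the 25 members, against 37.4% of all 32851 promoters. TATAA occurred in 19, against 24.9% of all promoters. The octamer ATTTGCAT occurred in 8, of which 5 were among the 7 H2B promoters and 3 among the 9 H2A promoters, against 1.74% of all promoters. The H1 box AAACACA occurred in 7, of which 4 were among the 5 H1 promoters, against 7.18% of all promoters. These matches describe letters in a window and were not tested as binding sites. The 200 bases before the start are shown as examples for H2ac10 (chr13:23533675-23533874, + strand), H2ac15 (chr13:21753913-21754112, - strand) and H2ac20 (chr3:96220881-96221080, - strand). They are also shown for H1f1 (chr13:23763468-23763667, + strand) and H4c1 (chr13:23761250-23761449, - strand). Other H2A genes with a promoter, H2ac18 and H2ac24 among them, are not shown. Capitals mark the CCAAT box, the TATA letters and the octamer on either strand, and matches outside these 200 bases are not shown.
H2ac10: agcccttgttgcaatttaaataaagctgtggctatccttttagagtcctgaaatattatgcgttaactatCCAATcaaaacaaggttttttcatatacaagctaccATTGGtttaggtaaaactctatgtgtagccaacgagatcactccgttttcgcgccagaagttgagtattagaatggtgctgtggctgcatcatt
H2ac15: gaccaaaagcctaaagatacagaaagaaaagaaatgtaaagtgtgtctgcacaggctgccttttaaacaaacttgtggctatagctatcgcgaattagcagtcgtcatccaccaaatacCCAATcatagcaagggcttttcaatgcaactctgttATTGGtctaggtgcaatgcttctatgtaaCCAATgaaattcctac
H2ac20: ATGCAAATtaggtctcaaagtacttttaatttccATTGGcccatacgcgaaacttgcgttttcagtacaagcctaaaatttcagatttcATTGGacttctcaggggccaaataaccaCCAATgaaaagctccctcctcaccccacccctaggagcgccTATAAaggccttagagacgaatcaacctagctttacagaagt
H1f1: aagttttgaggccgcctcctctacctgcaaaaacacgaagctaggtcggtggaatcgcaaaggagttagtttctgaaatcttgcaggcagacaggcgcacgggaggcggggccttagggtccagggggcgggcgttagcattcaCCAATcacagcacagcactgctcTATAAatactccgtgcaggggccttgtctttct
H4c1: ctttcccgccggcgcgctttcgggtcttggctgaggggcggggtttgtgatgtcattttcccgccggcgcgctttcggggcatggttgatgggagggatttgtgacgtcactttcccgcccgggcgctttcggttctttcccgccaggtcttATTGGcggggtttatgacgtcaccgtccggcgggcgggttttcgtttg
All 5 printed windows hold at least 1 CCAAT box on either strand, whereas the octamer, read on the opposite strand, stands only in H2ac20 among these 5.

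**Figure D1:**
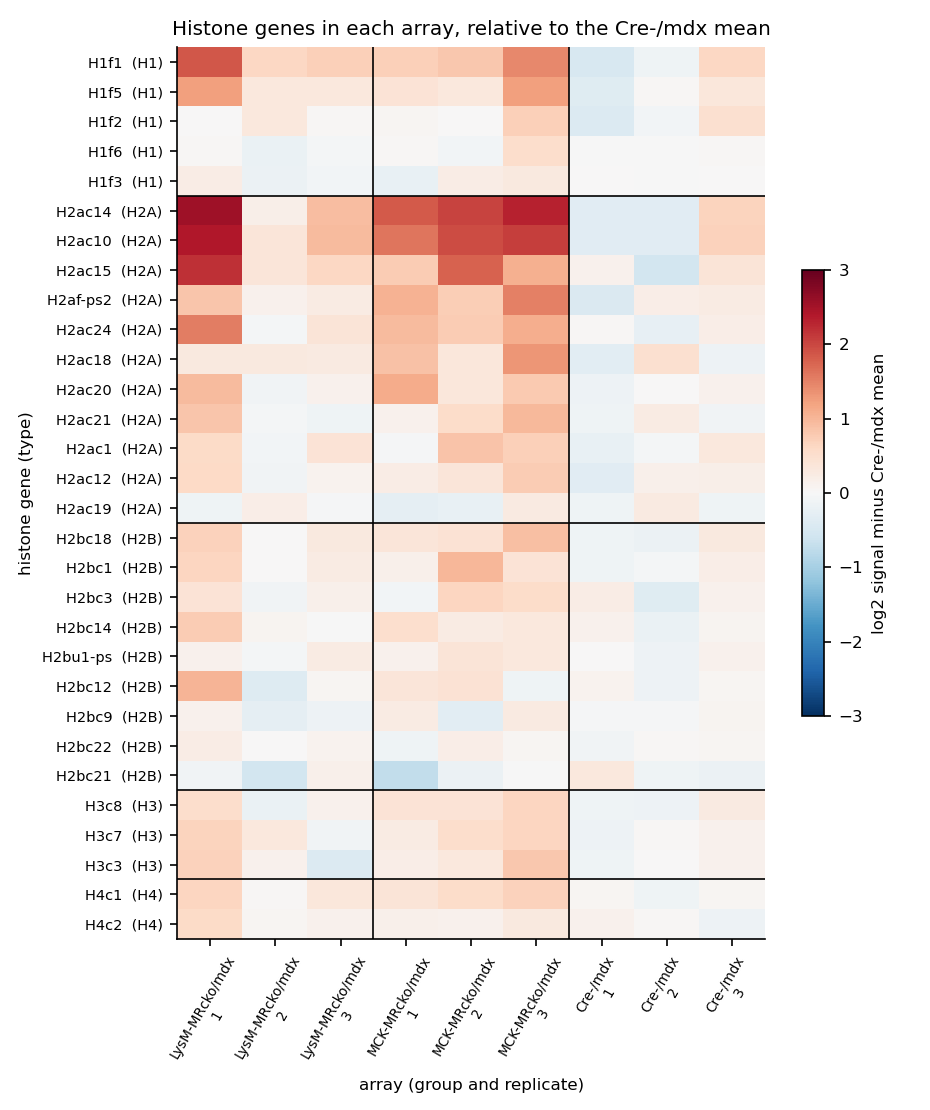
Log2 signal of each histone gene in each array minus that gene's mean in Cre-/mdx, with 1 row per gene, grouped by histone type, and 1 column per array. H2ac14 and H2ac10 are at least 1.60 above their Cre-/mdx means in all 3 MCK-MRcko/mdx arrays, and in LysM-MRcko/mdx array 1 H2ac14, H2ac10, H2ac15 and H1f1 are 2.55, 2.40, 2.20 and 1.86 above theirs.

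Arrays differed in histone signal within a group as well as between groups. The median over the 30 members, each taken relative to its own Cre-/mdx mean, was 0.65, 0.01 and 0.15 on the log2 scale in LysM-MRcko/mdx arrays 1 to 3, 0.24, 0.40 and 0.71 in MCK-MRcko/mdx, and -0.13, -0.06 and 0.13 in Cre-/mdx. LysM-MRcko/mdx array 1 stood apart from the other arrays of its group. It had the highest of the 9 values in 11 members and lay above all 3 Cre-/mdx arrays in 24, while LysM-MRcko/mdx arrays 2 and 3 lay above all 3 in 2 and 12. The MCK-MRcko/mdx arrays did so in 19, 22 and 27 members. Cre-/mdx array 1 had the lowest value in 13 members and array 2 in 8. The array medians over all clusters lay between 4.70 and 4.78, a likeness that normalization sets, so they do not bear on whether an array as a whole differed. The LysM-MRcko/mdx medians against Cre-/mdx are therefore also given without array 1, for the members and for each gene list other than myofiber markers. Changes in the number of calls are given with them. Other counts and single genes are given from all 3 arrays unless stated.

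A member was called changed where its groups differed by at least 2-fold, which is 1 on the log2 scale, at an unadjusted p under 0.05 in a limma fit of all 65672 clusters. No cluster of any kind passed an adjusted p of 0.05 in any comparison, so each p below is a ranking of single genes and not a result that survives correction. By unadjusted p alone, 6.2% of all clusters were under 0.05 in LysM-MRcko/mdx against Cre-/mdx and 5.54% in MCK-MRcko/mdx against Cre-/mdx. With 3 arrays against 3, an exact permutation test has 20 splits and cannot give a two-sided p below 0.10.

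In MCK-MRcko/mdx against Cre-/mdx, 3 of the 30 members rose and 0 fell. All 3 are H2A genes, namely H2ac14, H2ac10 and H2af-ps2, and among all clusters 0.227% were called higher and 0.0944% lower. The difference was positive in 28 of the 30 members, against 48.7% of all clusters, and its median was 0.48 on the log2 scale, against a median of 0 over all clusters. In 14 members all 3 MCK-MRcko/mdx arrays lay above all 3 Cre-/mdx arrays, which held for 3.39% of all clusters. In 0 members did all 3 lie below, which held for 2.81% of all clusters. In whole muscle, more cells of a type and more RNA per cell cannot be told apart.

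H2ac14, formerly Hist1h2aj, belongs to the H2A genes that give the partner of H2B in the nucleosome core, and RefSeq annotates it as a pseudogene. Its log2 signals were 15.87, 16.05 and 16.34 in MCK-MRcko/mdx, 16.57, 14.20 and 14.95 in LysM-MRcko/mdx, and 13.68, 13.68 and 14.69 in Cre-/mdx. All 3 MCK-MRcko/mdx arrays lay above all Cre-/mdx arrays, while LysM-MRcko/mdx was split between array 1, the highest of the 9, and array 2, which lay inside the Cre-/mdx range. The MCK-MRcko/mdx mean was 16.09 ± 0.24 and the Cre-/mdx mean 14.02 ± 0.58 (SD, n = 3 each), a difference of 2.07 ± 0.60 (SE) or 4.2-fold, with a 95% interval of 0.66 to 3.48 (limma, p = 0.0104, adjusted p = 0.84; exact permutation p = 0.10).

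H2ac10, formerly Hist1h2af, is a protein-coding H2A gene of the same chromosome. Its log2 signals were 14.55, 14.90 and 15.03 in MCK-MRcko/mdx, 15.35, 13.31 and 13.89 in LysM-MRcko/mdx, and 12.60, 12.61 and 13.65 in Cre-/mdx. The order of the arrays was close to that of H2ac14, with MCK-MRcko/mdx clear of Cre-/mdx and LysM-MRcko/mdx array 1 on top. MCK-MRcko/mdx averaged 14.83 ± 0.25 and Cre-/mdx 12.95 ± 0.60 (SD, n = 3 each), a difference of 1.87 ± 0.54 (SE) or 3.66-fold, with a 95% interval of 0.60 to 3.15 (limma, p = 0.0104, adjusted p = 0.84; exact permutation p = 0.10). Taken relative to their own Cre-/mdx means, the signals of H2ac14 and H2ac10 differed by no more than 0.26 on the log2 scale in any of the 9 arrays. Members of the H2A family have nearly the same coding sequence, and whether the probes of these clusters measured separate transcripts was not tested.

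H2af-ps2, formerly Hist1h2al, is annotated as a transcribed H2A pseudogene. Its log2 signals were 11.23, 10.91 and 11.70 in MCK-MRcko/mdx, 11.01, 10.31 and 10.43 in LysM-MRcko/mdx, and 9.75, 10.38 and 10.42 in Cre-/mdx. MCK-MRcko/mdx lay above Cre-/mdx without overlap, and LysM-MRcko/mdx arrays 2 and 3 lay beside the upper Cre-/mdx arrays. The difference of MCK-MRcko/mdx from Cre-/mdx was 1.10 ± 0.29 (SE) or 2.14-fold, with a 95% interval of 0.41 to 1.78 (limma, p = 0.0069, adjusted p = 0.84; exact permutation p = 0.10). Its difference fell below 2-fold, to 0.88 without Cre-/mdx array 1 and 0.89 without MCK-MRcko/mdx array 3.

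**Figure D2:**
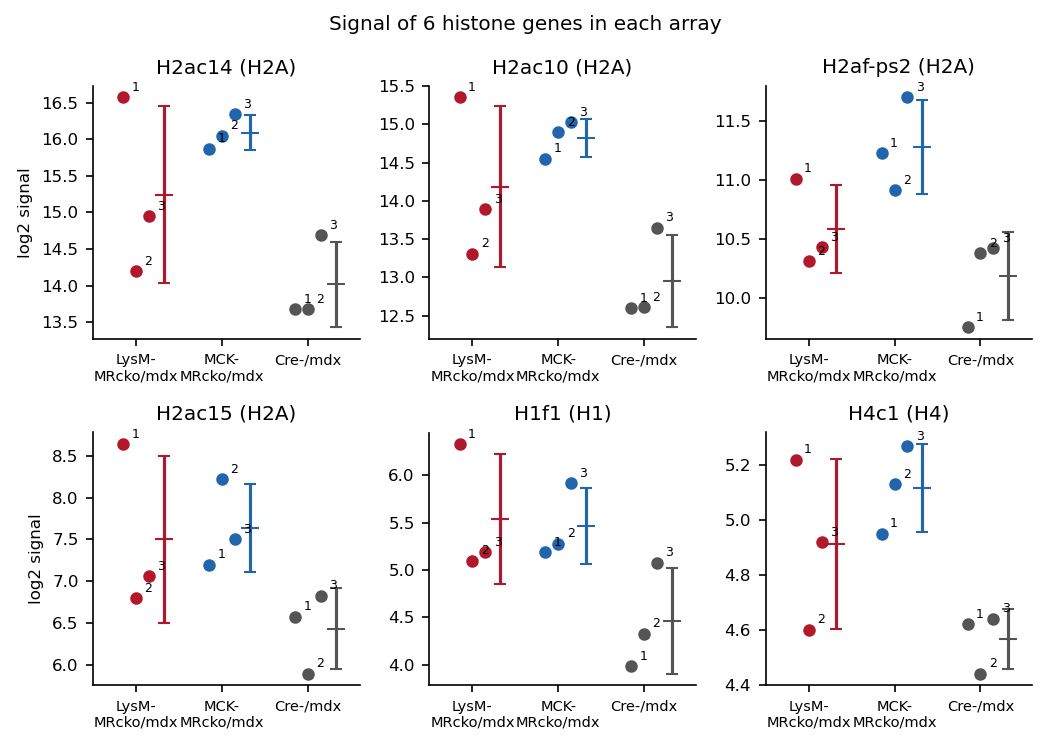
Log2 signal of 6 histone genes in each array, with points numbered by replicate and a bar giving the mean ± SD of 3 arrays beside each group. In all 6 genes every MCK-MRcko/mdx point lies above every Cre-/mdx point, whereas the LysM-MRcko/mdx points spread between array 1 and the Cre-/mdx range in H2ac14, H2ac10 and H4c1.

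None of the other H2A genes was called. H2ac15 had log2 signals of 7.20, 8.22 and 7.50 in MCK-MRcko/mdx, 8.64, 6.80 and 7.06 in LysM-MRcko/mdx, and 6.58, 5.90 and 6.83 in Cre-/mdx. Its MCK-MRcko/mdx arrays did not overlap Cre-/mdx, and the difference was 1.20 ± 0.53 (SE), with a 95% interval of -0.06 to 2.47 (limma, adjusted p = 0.84). H2ac24 differed by 0.93 ± 0.38 (SE) and H2ac20 by 0.74 ± 0.30 (SE), both without overlap and at an unadjusted p under 0.05. The mean of H2ac24 over the 9 arrays, 4.46, lay below the median cluster mean of 4.73. H2ac18 differed by 0.84 ± 0.28 (SE), also at an unadjusted p under 0.05, with array 2 of MCK-MRcko/mdx at 5.34 and array 2 of Cre-/mdx at 5.48. H2ac12, H2ac21 and the testis gene H2ac1 differed by 0.45, 0.55 and 0.51, and the H2A gene with the smallest difference was H2ac19, at -0.07 ± 0.18. Over the 11 H2A genes the median difference was 0.84, with 10 positive, 6 at an unadjusted p under 0.05 and 7 without overlap. Over the 19 members of the other types it was 0.35, with 18 positive, 3 at an unadjusted p under 0.05 and 7 without overlap. The difference between these medians was not tested.

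Among H1 genes in MCK-MRcko/mdx, H1f1, a linker histone of dividing cells, came closest to a call. Its log2 signals were 5.19, 5.28 and 5.92 in MCK-MRcko/mdx, 6.33, 5.10 and 5.19 in LysM-MRcko/mdx, and 3.99, 4.33 and 5.08 in Cre-/mdx. Both knockouts lay above every Cre-/mdx array, although LysM-MRcko/mdx array 2 was nearly level with Cre-/mdx array 3. The difference of MCK-MRcko/mdx from Cre-/mdx was 1.00 ± 0.42 (SE), just under 2-fold before rounding, with a 95% interval of -0.01 to 2.00 (limma, adjusted p = 0.84; exact permutation p = 0.10). H1f5, another S-phase H1, differed by 0.65 ± 0.35. H1f2 had log2 signals of 10.29, 10.23 and 10.95 in MCK-MRcko/mdx and 9.83, 10.14 and 10.71 in Cre-/mdx, which overlapped, and H1f3 differed by 0.10 ± 0.15. The testis-specific H1f6 stayed between 3.04 and 3.76 in all 9 arrays and differed by 0.15 ± 0.15. The median over the 5 H1 genes was 0.26.

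The H2B genes, whose products pair with H2A, showed differences between -0.30 and 0.57 in MCK-MRcko/mdx against Cre-/mdx, with a median of 0.28 over 9 genes and 0 called. H2bc18 had the largest, 0.57 ± 0.23 (SE), with log2 signals of 6.38, 6.44 and 6.91 in MCK-MRcko/mdx and 5.88, 5.84 and 6.31 in Cre-/mdx (limma, adjusted p = 0.84). H2bu1-ps, a transcribed pseudogene, differed by 0.28 ± 0.11 (SE), with its lowest MCK-MRcko/mdx array level with its highest Cre-/mdx array at 4.69. H2bc3 and H2bc14 differed by 0.37 and 0.35, the testis gene H2bc1 by 0.51, H2bc12 by 0.22, and H2bc9 and H2bc22 by 0.06 and 0.04. H2bc21 had the lowest difference of the 30 members at -0.30 ± 0.26, with log2 signals of 6.91, 7.47 and 7.63 in MCK-MRcko/mdx, 7.53, 7.10 and 7.80 in LysM-MRcko/mdx and 7.95, 7.50 and 7.47 in Cre-/mdx. Its 3 groups overlapped, unlike those of H2bc18, where MCK-MRcko/mdx was clear of Cre-/mdx.

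The H3 and H4 genes, which form the inner part of the nucleosome core, differed by less than 2-fold. H3c7, H3c8 and H3c3 differed by 0.47, 0.48 and 0.44 in MCK-MRcko/mdx, all without overlap of the 3 arrays with Cre-/mdx and none at an unadjusted p under 0.05. The means of H3c8 and H3c3 over the 9 arrays, 4.51 and 4.59, lay below the median cluster mean of 4.73. H4c1 had log2 signals of 4.95, 5.13 and 5.27 in MCK-MRcko/mdx, 5.22, 4.60 and 4.92 in LysM-MRcko/mdx, and 4.62, 4.44 and 4.64 in Cre-/mdx. MCK-MRcko/mdx was clear of Cre-/mdx, and the difference was 0.55 ± 0.16 (SE), with a 95% interval of 0.17 to 0.93 (limma, adjusted p = 0.84). H4c2, the only member with 2 clusters, differed by 0.19 ± 0.15 and overlapped.

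In LysM-MRcko/mdx against Cre-/mdx, 1 of the 30 members rose and 0 fell, against 0.234% of all clusters called higher and 0.142% called lower. This was H1f1, with a mean of 5.54 ± 0.69 in LysM-MRcko/mdx and 4.47 ± 0.56 in Cre-/mdx (SD, n = 3 each), a difference of 1.07 ± 0.42 (SE) or 2.1-fold and a 95% interval of 0.07 to 2.08 (limma, p = 0.039, adjusted p = 0.78; exact permutation p = 0.10). The call was lost in 9 of 19 alternative settings. It was lost with sex as a covariate, with the replicate number as a block, in the fit of 6 arrays and in the plain test, where the difference stayed at 1.07, and without Cre-/mdx array 1 or 2 or MCK-MRcko/mdx array 1 or 2. Without LysM-MRcko/mdx array 1 its difference was 0.68 and 0 members were called. The difference was positive in 26 of the 30 members, against 48.6% of all clusters, with a median of 0.27. Without array 1 it was positive in 22, with a median of 0.10. H1f1 was also the 1 member whose LysM-MRcko/mdx and Cre-/mdx arrays did not overlap, where 3.29% of all clusters lay wholly above, and in 0 members did the arrays lie wholly below, where 4.44% of all clusters did.

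H2ac10 and H2ac14 had the largest differences in LysM-MRcko/mdx, 1.23 ± 0.54 and 1.22 ± 0.60 (SE), and neither was called (exact permutation p = 0.20 each). Both rest largely on array 1. Without it the differences were 0.65 for H2ac10, 0.56 for H2ac14 and 0.49 for H2ac15, where all 3 arrays gave 1.06 ± 0.53. Without LysM-MRcko/mdx array 2 instead, 4 members were called, namely H1f1, H2ac10, H2ac14 and H2ac15. The median difference by type was 0.33 in H2A, 0.30 in H4, 0.16 in H2B, 0.15 in H3 and 0.13 in H1. Without array 1 these medians were 0.16 in H2A, 0.14 in H4, 0.04 in H2B, -0.04 in H3 and 0.18 in H1. All 11 H2A differences were positive, the smallest being 0.01 in H2ac19. In H2B they ran from -0.16 in H2bc21 to 0.33 in H2bc18, in H3 from 0.14 in H3c3 to 0.29 in H3c7, and in H4 they were 0.35 in H4c1 and 0.26 in H4c2. In H1 the lowest was -0.08, in H1f6, and H1f2, H1f3 and H1f5 differed by 0.13, -0.02 and 0.61.

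**Figure D3:**
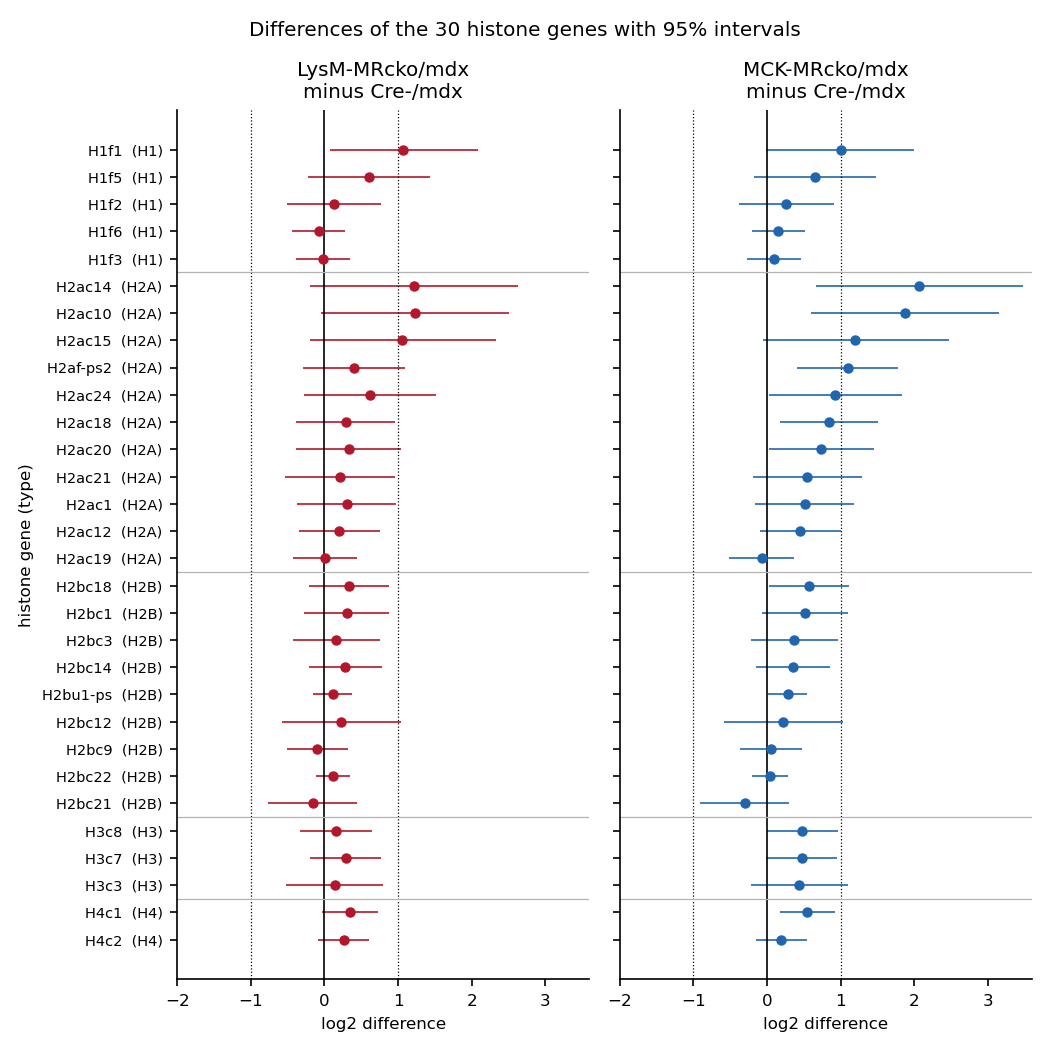
Log2 difference of each histone gene from Cre-/mdx with its 95% interval from limma, for LysM-MRcko/mdx on the left and MCK-MRcko/mdx on the right, with dotted lines at 2-fold. H2ac14, H2ac10 and H2af-ps2 lie past 2-fold with intervals above 0 in MCK-MRcko/mdx, at 2.07, 1.87 and 1.10, and H1f1 does so in LysM-MRcko/mdx, at 1.07.

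Set directly against each other, LysM-MRcko/mdx and MCK-MRcko/mdx differed in 0 of 30 called members, where 0.429% of all clusters were called by limma, and in 1 member at an unadjusted p under 0.05, where 7.12% of all clusters were. That member was H2af-ps2, at -0.70 ± 0.29 (SE), with a 95% interval of -1.38 to -0.01 (limma, p = 0.0474, adjusted p = 0.70; exact permutation p = 0.20). H2ac14 and H2ac10 differed by -0.85 ± 0.60 and -0.64 ± 0.54, with 95% intervals of -2.26 to 0.56 and -1.92 to 0.63. H2ac18 was lower in LysM-MRcko/mdx in all arrays, at 5.30, 5.30 and 5.29 against 5.88, 5.34 and 6.33 in MCK-MRcko/mdx, the 1 member without overlap, where 5.06% of all clusters lay wholly below, and 0 members lay wholly above, where 3.72% of all clusters did. The difference was positive in 6 of the 30 members, against 48.1% of all clusters, with a median of -0.21. Without LysM-MRcko/mdx array 1, H2ac14 and H2ac10 were called lower in LysM-MRcko/mdx than in MCK-MRcko/mdx, at -1.51 and -1.23, and the median was -0.36. Largest and smallest differences within H2B, H3 and H4 ran from -0.33 in H3c8 to 0.14 in H2bc21, and in H1 from -0.23 in H1f6 to 0.08 in H1f1.

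Clusters that carry several gene symbols, at least 1 of them a histone gene of the rule, were set beside the members because their signals cannot be given to a single gene. There were 39 such clusters. In MCK-MRcko/mdx against Cre-/mdx 5 of them were called higher, 4 of 10 H2A clusters and 1 of 7 H3 clusters, with a median difference of 0.57, 36 positive and 18 without overlap. Of all clusters 0.227% were called higher and 3.39% lay wholly above. In LysM-MRcko/mdx against Cre-/mdx 0 were called and 4 were at an unadjusted p under 0.05 by limma, where 6.2% of all clusters were. The median there was 0.40, or 0.12 without LysM-MRcko/mdx array 1. This set was added after the values of the members had been seen.

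Genes that process and turn over histone mRNA had medians near that of all clusters. Of 21 listed genes 20 were found and 0 were called in either knockout. Median differences from Cre-/mdx were 0.06 in MCK-MRcko/mdx and 0 in LysM-MRcko/mdx, or -0.02 without LysM-MRcko/mdx array 1. In MCK-MRcko/mdx 17 of the 20 were positive, 4 lay wholly above Cre-/mdx and 1 lay wholly below. There 4 were at an unadjusted p under 0.05 by limma. Of all clusters 48.7% were positive, 3.39% lay wholly above, 2.81% wholly below and 5.54% were under 0.05. In LysM-MRcko/mdx 2 of the 20 lay wholly above, 0 wholly below and 1 was under 0.05. The shares of all clusters there were 3.29%, 4.44% and 6.2%. Slbp, the stem-loop binding protein, had log2 signals of 6.19, 6.19 and 6.21 in MCK-MRcko/mdx, 6.22, 6.02 and 6.17 in LysM-MRcko/mdx and 6.19 in each Cre-/mdx array. Npat, the coactivator of histone transcription, had 8.46, 8.35 and 8.60 in MCK-MRcko/mdx, 8.14, 8.22 and 8.25 in LysM-MRcko/mdx and 8.25, 8.25 and 8.05 in Cre-/mdx. The Slbp signals of MCK-MRcko/mdx and Cre-/mdx were nearly level, whereas Npat lay above Cre-/mdx without overlap in MCK-MRcko/mdx, by 0.29 ± 0.08 (SE; limma, adjusted p = 0.84). Eri1, an exonuclease that trims the histone stem-loop, differed most, at 0.74 ± 0.17 (SE) in MCK-MRcko/mdx (limma, adjusted p = 0.84) and -0.06 ± 0.17 in LysM-MRcko/mdx. Cstf3, a cleavage factor subunit, differed by 0.30 in MCK-MRcko/mdx, Mif4gd, an SLBP partner, by -0.17 and Sympk, the scaffold of the cleavage complex, by -0.20. In LysM-MRcko/mdx Lsm10, of the U7 particle, differed by 0.40, the cleavage enzyme Cpsf3 by 0.13 and Cstf3 by -0.09.

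Histone variants that do not meet the rule of the members were found for 8 of 11 listed genes, and 0 were called. Their median differences from Cre-/mdx were 0.19 in MCK-MRcko/mdx and 0.09 in LysM-MRcko/mdx, or 0 without LysM-MRcko/mdx array 1. H2az1, the H2A.Z variant placed at promoters, had log2 signals of 11.85, 12.00 and 12.86 in MCK-MRcko/mdx, 12.25, 11.16 and 11.50 in LysM-MRcko/mdx and 11.14, 11.32 and 11.61 in Cre-/mdx, a difference of 0.88 ± 0.36 (SE) in MCK-MRcko/mdx (limma, adjusted p = 0.84). H2ax, the variant phosphorylated at DNA breaks, differed by 0.58 in MCK-MRcko/mdx and 0.54 in LysM-MRcko/mdx, and the linker variant H1f10 by -0.32 and -0.09. Macroh2a2 differed by -0.02 in MCK-MRcko/mdx, and in LysM-MRcko/mdx the centromeric H3 variant Cenpa differed by 0.32 and H2az2 by 0.02. Among histone chaperones, which carry histones to DNA, 16 of 19 were found and 0 were called, with medians of 0.21 in MCK-MRcko/mdx and 0.02 in LysM-MRcko/mdx, or 0 without LysM-MRcko/mdx array 1. In MCK-MRcko/mdx 5 of the 16 lay wholly above Cre-/mdx, against 3.39% of all clusters, and 0 lay wholly below, against 2.81%. In LysM-MRcko/mdx 0 lay wholly above, against 3.29% of all clusters, and 2 wholly below, against 4.44%. Supt16, a FACT subunit, and Nap1l1, an H2A-H2B chaperone, each differed by 0.56 in MCK-MRcko/mdx without overlap (limma, adjusted p = 0.84 each), and the lowest were Nap1l4 at -0.09 and the importin Ipo4 at -0.07. In LysM-MRcko/mdx the H3-H4 chaperone Asf1a and the H3.3 loading factor Atrx differed by -0.48 and -0.42, Asf1b by 0.31 and Nap1l1 by 0.21.

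Genes of S phase and mitosis were set beside the histone genes as the process they belong to. Of the 38 S phase and DNA replication genes found, 0 were called, 35 were positive in MCK-MRcko/mdx with a median of 0.17, and 32 in LysM-MRcko/mdx with a median of 0.10. In MCK-MRcko/mdx 14 of the 38 lay wholly above Cre-/mdx, against 3.39% of all clusters. There 7 were at an unadjusted p under 0.05 by limma, against 5.54% of all clusters. In LysM-MRcko/mdx 1 lay wholly above, against 3.29% of all clusters, and 1 was under 0.05, against 6.2%. With array 1 of LysM-MRcko/mdx left out, 25 were positive in that group, with a median of 0.04. Mcm6, a subunit of the replicative helicase, had log2 signals of 7.68, 7.53 and 7.94 in MCK-MRcko/mdx, 7.55, 6.86 and 7.19 in LysM-MRcko/mdx and 6.74, 6.62 and 6.83 in Cre-/mdx, and both knockouts were clear of Cre-/mdx. Its difference was 0.99 ± 0.18 in MCK-MRcko/mdx and 0.47 ± 0.18 in LysM-MRcko/mdx (SE; limma, adjusted p = 0.84 and 0.78). Pcna, the sliding clamp of the polymerase, differed by 0.93 ± 0.24 in MCK-MRcko/mdx and 0.41 ± 0.24 in LysM-MRcko/mdx. The helicase subunit Mcm2 differed by 0.49 in LysM-MRcko/mdx. The lowest differences were in Gins4, of the helicase complex, at -0.09 in MCK-MRcko/mdx and -0.28 in LysM-MRcko/mdx, in the flap nuclease Fen1 at -0.02 in MCK-MRcko/mdx, and in the polymerase subunit Pola1 at -0.15 in LysM-MRcko/mdx.

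Of the 24 G2 and mitosis genes found, 5 rose in MCK-MRcko/mdx and 1 in LysM-MRcko/mdx, 0 fell, and all 24 differences were positive in both, with medians of 0.65 and 0.34. The 5 were Mki67, the Ki-67 antigen of cycling cells, at 1.80 ± 0.66, the mitotic motor Kif11 at 1.55 ± 0.41, the topoisomerase Top2a at 1.16 ± 0.44, cyclin A2 (Ccna2) at 1.09 ± 0.38 and the kinetochore motor Cenpe at 1.00 ± 0.31 (SE; limma, adjusted p = 0.84 each). Mki67 had log2 signals of 11.16, 11.67 and 11.89 in MCK-MRcko/mdx, 11.68, 9.80 and 10.26 in LysM-MRcko/mdx and 10.58, 8.54 and 10.21 in Cre-/mdx. As in H2ac14, all MCK-MRcko/mdx arrays and LysM-MRcko/mdx array 1 lay above the rest. In LysM-MRcko/mdx the gene that rose was the mitotic kinase Plk1, at 1.11 ± 0.45 (limma, adjusted p = 0.78), with arrays at 8.89, 7.59 and 7.59 against 6.77, 6.38 and 7.59 in Cre-/mdx. Without LysM-MRcko/mdx array 1, Plk1 differed by 0.68 ± 0.37 and was not called, and the G2 and mitosis median was 0.11, with 21 positive. The smallest differences were 0.19 in Birc5 and 0.23 in Ube2c in MCK-MRcko/mdx, and 0.11 in Birc5 and 0.17 in Bub1 in LysM-MRcko/mdx. In MCK-MRcko/mdx 18 of the 24 lay wholly above Cre-/mdx, against 3.39% of all clusters. There 11 were at an unadjusted p under 0.05 by limma, against 5.54% of all clusters. In LysM-MRcko/mdx 1 lay wholly above, against 3.29% of all clusters, and 1 was under 0.05, against 6.2%. Of all clusters 0.227% were called higher in MCK-MRcko/mdx and 0.234% in LysM-MRcko/mdx. The lists were measured on the same arrays as the histone genes, and no relation between them was tested.

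In LysM-MRcko/mdx against MCK-MRcko/mdx, 0 genes of these 5 lists were called, and the medians lay between -0.26 in G2 and mitosis genes and -0.03 in variants. Of the 16 histone chaperones 7 were at an unadjusted p under 0.05, where 7.12% of all clusters were. Of these chaperones 6 lay wholly below MCK-MRcko/mdx, where 5.06% of all clusters did. Of the 20 histone mRNA processing genes 4 were under 0.05, 3 lay wholly below and 1 wholly above, where 3.72% of all clusters did. Of the 38 S phase genes 5 were under 0.05 and 4 lay wholly below. Of the 24 G2 and mitosis genes 1 was under 0.05 and 1 lay wholly below. With array 1 of LysM-MRcko/mdx left out, Mki67, Kif11 and Top2a were called lower in LysM-MRcko/mdx, and the G2 and mitosis median was -0.54. The lowest differences in each list were -0.80 in Eri1 and -0.39 in Cstf3, -0.60 in H2az1 and -0.11 in H2aj, -0.67 in Asf1a and -0.63 in Supt16, -0.65 in Pola1 and -0.54 in the ribonucleotide reductase gene Rrm1, and -0.99 in Mki67 and -0.96 in Kif11. The highest were 0.31 in Sympk and 0.27 in Lsm10, 0.23 in H1f10 and 0.07 in Cenpa, 0.14 in Ipo4 and 0.07 in Asf1b, 0.15 in Mcm2 and 0.09 in Clspn, and 0.31 in Plk1 and 0.10 in Ube2c.

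**Figure D4:**
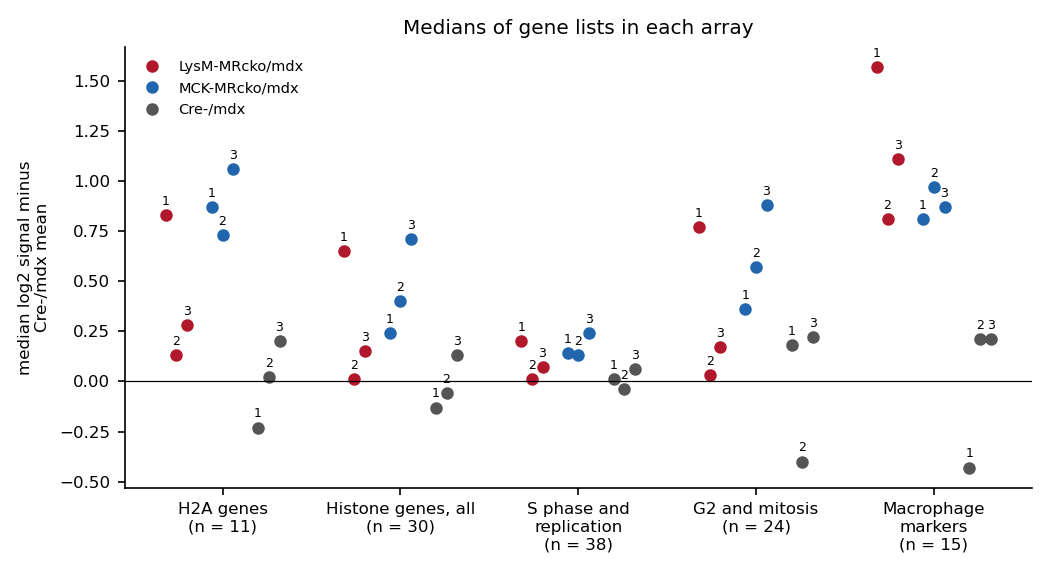
Median over the genes of a list of the log2 signal minus each gene's Cre-/mdx mean, with 1 point per array, numbered by replicate, for H2A genes, all histone genes, S phase genes, G2 and mitosis genes and macrophage markers. MCK-MRcko/mdx lies at 0.73 to 1.06 in H2A genes against -0.23 to 0.20 in Cre-/mdx, and LysM-MRcko/mdx array 1 is the highest array of its group in all 5 lists.

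Markers of other cell types moved with the genotypes as well. Of 15 macrophage markers 6 rose in MCK-MRcko/mdx and 9 in LysM-MRcko/mdx against Cre-/mdx, and 0 fell. Of all clusters 0.227% and 0.234% were called higher in these comparisons. The marker medians per array, relative to Cre-/mdx, were 0.81, 0.97 and 0.87 in MCK-MRcko/mdx, 1.57, 0.81 and 1.11 in LysM-MRcko/mdx, and -0.43, 0.21 and 0.21 in Cre-/mdx. The macrophage marker median thus lay above every Cre-/mdx array in all 6 knockout arrays. Some single markers overlapped Cre-/mdx, and 9 of 15 in MCK-MRcko/mdx and 12 of 15 in LysM-MRcko/mdx lay wholly above it. Of all clusters 3.39% and 3.29% did so. The histone medians of arrays 1 to 3 were 0.65, 0.01 and 0.15 in LysM-MRcko/mdx and 0.24, 0.40 and 0.71 in MCK-MRcko/mdx. In Cre-/mdx they were -0.13, -0.06 and 0.13. LysM-MRcko/mdx array 1 was the highest and array 2 the lowest of its group in both the macrophage and the histone median. Msr1, a scavenger receptor, differed by 2.19 ± 0.39 in MCK-MRcko/mdx and 0.88 ± 0.39 in LysM-MRcko/mdx, and Cd68, a lysosomal macrophage protein, by 1.08 ± 0.43 and 2.02 ± 0.43 (SE). In LysM-MRcko/mdx 2 of the 15 were lower, Lyz2 at -0.10 ± 0.32 and Cd163 at -0.01 ± 0.54, and Mertk differed by 0.24 ± 0.22. In MCK-MRcko/mdx all 15 were higher, the smallest being Mertk at 0.25. Of 12 satellite cell and myoblast markers 3 rose in LysM-MRcko/mdx, Mymk, Chrna1 and Myh3, and 0 in MCK-MRcko/mdx. Pax7, Myf5 and Myod1 were not called in LysM-MRcko/mdx, at 0.25, 0.46 and 0.54, and Sdc4 was lower, at -0.22. Of the 12 markers 11 were higher in LysM-MRcko/mdx, while in MCK-MRcko/mdx 6 were higher and 6 lower. Of 7 fibroblast markers Postn rose in LysM-MRcko/mdx by 1.89 ± 0.36. There 4 of the 7 were higher and 3 lower, namely Dcn, Lum and Dpp4 at -0.19, -0.22 and -0.04. Of 8 lymphocyte and 2 erythroid markers 0 were called. All 8 endothelial markers were lower in MCK-MRcko/mdx than in Cre-/mdx, with a median difference of -0.74, 5 at an unadjusted p under 0.05 and 3 without overlap. Of all clusters 5.54% were under 0.05 and 2.81% lay wholly below. Of these 8 markers 1, the endothelial cadherin Cdh5, was called lower, at -1.13 ± 0.42 (SE), where 0.0944% of all clusters were. In LysM-MRcko/mdx 7 of the 8 were lower, with a median of -0.41 and 0 called. Without LysM-MRcko/mdx array 1, 6 macrophage markers were called with a median of 0.92, and the endothelial median was -0.39. Mymk, Myh3 and Postn kept their calls there, and Chrna1 lost its call. The satellite cell and myoblast median was 0.22 without array 1 and 0.44 with it, and the fibroblast median 0.52 and 0.24. The lymphocyte median was 0.11 without array 1 and 0.10 with it, and the erythroid median 0.01 and 0. The part of these cell types in the histone differences was not tested.

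The genotype and tissue labels were checked on 3 genes. Nr3c2, which encodes MR, averaged 6.91 ± 0.04 in LysM-MRcko/mdx, 6.81 ± 0.07 in MCK-MRcko/mdx and 7.02 ± 0.12 in Cre-/mdx (SD, n = 3 each), and whether its probes lie in the deleted part is not given in the sources used here, so this checks nothing. Lyz2, the locus from which LysM-Cre is expressed, differed by -1.05 ± 0.32 (SE) in LysM-MRcko/mdx against MCK-MRcko/mdx and was called lower (limma, adjusted p = 0.62). Against Cre-/mdx, however, it differed by -0.10 ± 0.32 in LysM-MRcko/mdx, with overlap, and by 0.94 ± 0.32 in MCK-MRcko/mdx, without overlap, so it was not lower in LysM-MRcko/mdx than in Cre-/mdx by more than its error. Ckm, the muscle creatine kinase whose promoter drives MCK-Cre, lay between 19.12 and 19.54 in all arrays, below the top of the scale at 19.93, and 8 of 10 myofiber markers, Ckm included, lay above 19 in every array. The highest histone signal, 16.57, was below this range. Acta1, Myh4, Tnnt3 and Mylpf stood at the top of the scale, 19.93, in every array and could show no difference. Myh2 and Tnni2 lay below 19 in every array. Against Cre-/mdx, Myh2 differed by -0.75 ± 0.32 in LysM-MRcko/mdx and -0.76 ± 0.32 in MCK-MRcko/mdx (SE), with overlap in both. Tnni2 differed by -0.17 and -0.07.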

How the data were processed

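Gene expression was measured in whole quadriceps of 9 mice with 1 Clariom D array each. RNA was labelled with a whole-transcript kit, and the authors background-corrected, normalized and summarised the probes with gene-level SST-RMA in Affymetrix Expression Console and compared groups in Transcriptome Analysis Console. Versions and the array's genome build are not given in the sources used here. The deposited values are log2 signals of 65672 transcript clusters, rounded to 2 decimals, and were used without further normalization or filter. Of these clusters 30450 carry 1 gene symbol, 2151 several and 33071 none, and 327 symbols were updated through RefSeq. For a gene with several clusters the highest mean over the 9 arrays was used.

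All arrays were fitted in R 4.3.3 with limma 3.58.1 (lmFit, contrasts.fit and eBayes), with 1 mean per group and 3 contrasts. All p-values are two-sided, and the adjusted ones use the Benjamini-Hochberg method on the whole table. The script was tested on simulated data with 200 changed clusters. Precision is limited by the number of arrays. Mean signals were ranked between clusters to choose the cluster of a gene and which genes to name, and for the filter on dim clusters. Levels of different clusters were otherwise compared only to place histone signals against the myofiber markers and the median cluster mean. Members were named by rule: called members, the largest and smallest difference and the 3 brightest members of each type, and testis members. From each list other than the cell type markers, the called genes and the 2 largest differences in either direction were named. Nr3c2, Lyz2 and Ckm were added. Of the cell type markers only examples are named, and not every called one. The members and lists were chosen with earlier results of these data known. Other members are named to account for all 30. Alternatives were the samples fitted, sex, the replicate number as a block, a plain test, eBayes options, array weights, other normalizations, a filter on dim clusters, the mean over clusters, no fold limit, each array left out in turn and, added after the values were seen, clusters with several symbols and the gene lists without LysM-MRcko/mdx array 1.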

Additional observations from a re-analysis of the deposited data

How the results depend on the processing

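The median difference of the 30 histone genes kept its sign under every alternative for which it was computed. It ranged from 0.38 to 0.57 in MCK-MRcko/mdx against Cre-/mdx, from 0.10 to 0.35 in LysM-MRcko/mdx against Cre-/mdx and from -0.36 to -0.07 in LysM-MRcko/mdx against MCK-MRcko/mdx. The calls of H2ac14 and H2ac10 in MCK-MRcko/mdx held in all 19 settings, with differences of 1.85 to 2.41 and 1.69 to 2.22. The call of H2af-ps2 was lost in 3 of 19, without Cre-/mdx array 1, without MCK-MRcko/mdx array 3 and after quantile normalization, where its difference was 0.99.

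In MCK-MRcko/mdx against Cre-/mdx the count of 3 called members became 5 with median centring, which added H1f1 and H2ac15, 9 at an unadjusted p under 0.05 with no fold limit, and 8 of 69 with the several-symbol clusters, an alternative chosen after seeing the data. Leaving out 1 array at a time gave 2 to 4. In LysM-MRcko/mdx against Cre-/mdx the count of 1 became 0 in a fit of the 6 arrays alone, in the plain test and with sex as a covariate, and 2 after quantile normalization or median centring. Leaving out 1 array gave 0 to 4. It was 0 without LysM-MRcko/mdx array 1, Cre-/mdx array 1 or 2, or MCK-MRcko/mdx array 1 or 2, 2 without Cre-/mdx array 3 and 4 without LysM-MRcko/mdx array 2. In LysM-MRcko/mdx against MCK-MRcko/mdx the count of 0 became 1 with no fold limit and ranged from 0 to 2 with 1 array left out, the 2 coming without LysM-MRcko/mdx array 1. The cause of these changes was not tested.

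In that last comparison the uncalled differences of H1f1 and H2ac15 changed sign with single arrays left out, H1f1 ranging from -0.32 to 0.31 and H2ac15 from -0.71 to 0.21.

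Replicate numbers are shared between groups. Same-numbered arrays deviated from their group means with correlations of -0.234 to 0.162, inside the range of -0.35 to 0.325 for differently numbered arrays. With 3 arrays per group these correlations cannot decide whether the numbers pair the arrays. With the replicate number as a block, the counts were 0 in LysM-MRcko/mdx and 3 in MCK-MRcko/mdx against Cre-/mdx and 0 between the knockouts. With 3 arrays per group, SEs of 0.10 to 0.60 bound what can be seen. The means of 7 members lie below the median cluster mean of 4.73, namely H1f6, H2ac12, H2ac24, H2bu1-ps, H3c3, H3c8 and H4c2.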
